A study of Mus musculus with 4 samples.

Results

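The genes described here encode parts of the ubiquitin and proteasome system: ubiquitin-activating enzymes (Uba), conjugating enzymes (Ube2), F-box proteins (Fbxl, Fbxo, Fbxw), cullins (Cul), RING finger proteins (Rnf), deubiquitinases (Usp, Otu) and proteasome subunits (Psm). They were chosen by gene symbol alone among autosomal genes with an exonic SNP, leaving out Psmb8, Psmb9 and Usp18, which gave 137 of 8016 genes. One of them, Fbxl12, had only a SNP with 1 base listed for B and D alike, so 136 genes could be compared through 751 SNPs. They comprised 33 F-box genes, 34 RING finger genes, 32 deubiquitinase genes, 14 conjugating enzyme genes, 9 genes of the proteasome cap, 4 of its core, 3 of activators, inhibitors or assembly factors (Psme, Psmf and Psmg symbols), 4 cullins and 3 activating enzymes. Symbol is not function in every case: Uba2 activates SUMO and not ubiquitin.

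In this system an activating enzyme (E1) passes ubiquitin to a conjugating enzyme (E2), and a ligase (E3) brings the loaded E2 to a substrate. Cullins are scaffolds of multisubunit ligases whose F-box proteins choose the substrate, and most RING finger proteins act as ligases themselves. Deubiquitinases take the mark off again, and the proteasome, a core that cleaves proteins under a cap that recognises and unfolds them, degrades marked substrates. In fat cells this machinery is known to control, among others, regulators of lipid breakdown and of insulin signalling.

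Allele specific reads were counted in gonadal fat pads of F1 mice from crosses of C57BL/6J (B) and DBA/2J (D), fed chow and labelled as 8 weeks old, where the paper's methods give a greater age at harvest. All animals therefore carried 1 B and 1 D copy of each autosomal gene. Each of the 4 samples was 1 pool of RNA, labelled BxD female (from 3 animals), DxB female (from 2), BxD male (from 3) and DxB male (from 3). The first letter is the mother's strain, and values given in the order of the pools follow this list. Comparing B with D reads within the animals asks which genes differ in expression between the alleles.

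The labels of 2 pools go against their data. In the pool labelled DxB female, 99.2% of exonic X chromosome reads were B (13226 B and 109 D), and in the pool labelled BxD male 69.4% were B (9539 B and 4205 D). The other female pool, BxD female, had 68.3% and the DxB male pool 38.4% (4007 B and 6416 D). Males of a D mother carry only a D X chromosome, so the B reads of the DxB male pool go with neither its label nor its file name. Their source was not tested. The names of the deposited files give the pools labelled DxB female and BxD male as BxD male and DxB female, respectively. The B to D comparison does not depend on this, while any difference by sex or by cross does, and such differences are given under both identities. The 136 genes had 51146, 47271, 45710 and 37461 reads in the order of the pools, out of 3312507 to 4203116 exonic reads used per pool. Of 11 adipocyte markers, Car3, Cidec and Lep had counted SNPs and together made up 81992 to 107830 of each 1000000 reads used per pool, whereas Adipoq, Plin1, Fabp4 and the others had no counted read.

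Of the 136 genes, 32 (23.5%) differed between the alleles at an adjusted p under 0.05 in edgeR's quasi-likelihood test with Benjamini-Hochberg adjustment over 7927 genes, where 1448 (18.3%) did. The B allele was higher in 23 of them (16.9%, against 13.5% of all genes) and the D allele in 9 (6.62%, against 4.81%), which is near the background, and each of the 32 had its direction in 4 of 4 pools. The count with D higher was 4 without the BxD female pool and 5 without the DxB male pool. In a fit that takes the pool as a block, since both alleles of a pool come from the same animals, 50 genes were called, 32 with B and 18 with D higher. Of all genes 32.6% were called in that fit, 20% with B and 12.6% with D higher. Of the 32 genes, 31 were called in both fits, and Fbxo39 (10 B and 0 D reads) was lost with the block. The median log2 D to B ratio was -0.01 over the 136 genes and -0.04 over all genes. Among the 100 of these genes with at least 100 reads, 75 had a D share of the B and D reads between 40% and 60%, and 75.2% of all 5122 genes of that depth did. Of these 100, 26 were called, 18 with B and 8 with D higher, where 22% of the 5122 genes were called, 15.3% with B and 6.64% with D higher. Of the 36 with fewer reads, 6 (16.7%) were called. Of the 1448 calls over all 7927 genes, 1125 were among the 5122 with at least 100 reads.

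**Figure D1:**
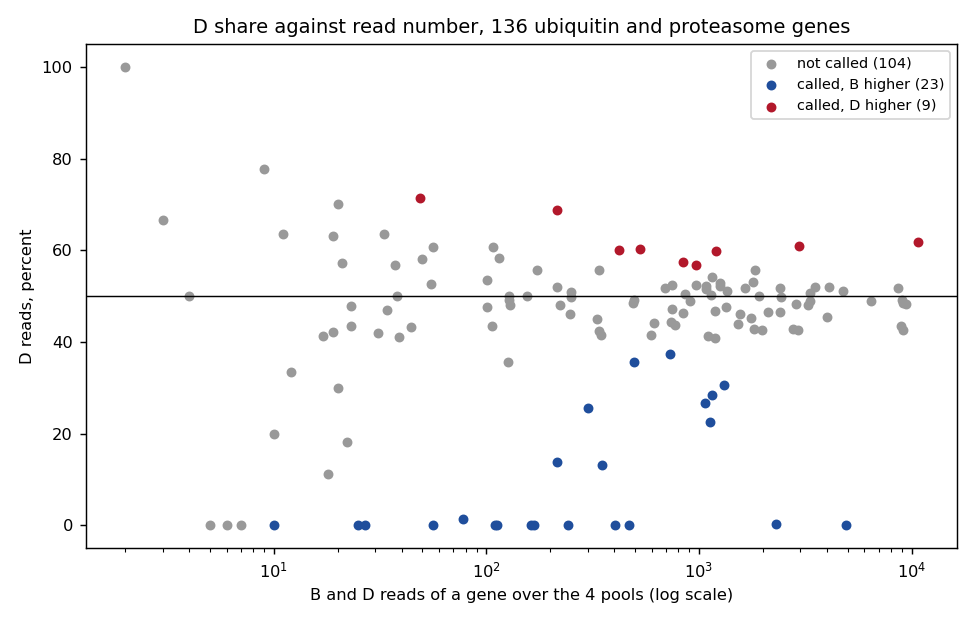
D share (D reads as a percent of B and D reads) of each of the 136 genes on the y axis against its reads over the 4 pools on a log x axis, with blue for the 23 genes called with B higher, red for the 9 called with D higher and grey for the other 104. A row of blue points lies at or near 0% D from 10 to 4910 reads, apart from the blue points between 13.1% and 37.3%, whereas no called gene lies above 71.4%.

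By role, the F-box genes held 12 of the 32 calls, 6 in each direction. Of the 34 RING finger genes 4 were called with B and 1 with D higher, and of the 32 deubiquitinase genes 4 with B and 2 with D higher. The conjugating enzymes had 4 of 14 called, the core 2 of 4, the cap 2 of 9 and the cullins 1 of 4, each with B higher. Of the calls in these last groups only that of Ube2j1 remained after a removal of SNPs, described below. It took out SNPs of at least 20 reads with under 1% of them from either allele. Of the F-box calls with B higher only that of Fbxo44 kept its direction, while Fbxl5 was then called with D higher. Of the F-box calls with D higher, Fbxo2 and Fbxo28 were lost. Among the RING finger genes only Rnf144a stayed called, and among the deubiquitinase genes Usp12, Usp35 and Usp38. Of all genes 18.3% were called before this removal, 13.5% with B and 4.81% with D higher, and 9.73% after it. None of the 3 activating enzyme genes and none of the 3 Psme, Psmf and Psmg genes was called at 0.05 without the block. Roles follow the symbols, so that Psmd5 and Psmd9, which are assembly chaperones, count with the cap.

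Among the genes with D higher, Rnf144a rested on the most SNPs and reads. It encodes a ligase of the RING-between-RING type known to act on the DNA repair kinase DNA-PKcs (chromosome 12: 26991662 to 27100121, minus strand, mm9). It had 1058 B and 1621 D reads in the BxD female pool, 1269 and 1878 in the pool labelled DxB female, 950 and 1611 in the pool labelled BxD male, and 813 and 1504 in the DxB male pool. All pools lay above 50% D, from 59.7% to 64.9%. The D share was 62.0% ± 2.38 (SD, n = 4 pools) and the log2 D to B ratio, scaled for the general excess of B reads, was 0.82 ± 0.13 (SE, adjusted p = 0.000666, edgeR). Of its 29 SNPs, 26 were above and 3 below 50% D, and SNPs in the 341 positions that the files mark as intronic gave 62.5% D from 721 B and 1204 D reads.

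Usp38, a deubiquitinase, showed the same direction with less spread among its SNPs (chromosome 8: 83504633 to 83538805, minus strand). Its B and D reads were 304 and 483 in the BxD female pool, 325 and 458 in the pool labelled DxB female, 268 and 477 in the pool labelled BxD male and 256 and 375 in the DxB male pool. The D share was above B in every pool, at 60.8% ± 2.45 (SD, n = 4), with a log2 ratio of 0.75 ± 0.11 (adjusted p = 0.000321, edgeR). All 20 SNPs with at least 20 reads lay above 50% D, from 50.4% to 67.3%, and 62 intronic SNPs gave 65.1% D (139 B and 259 D reads).

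The following sequences are the most deeply read SNP of each of 5 genes with a share between the extremes, so that the base behind each count can be seen. Each is 21 bases of the mm9 plus strand, with the B base, which is also the reference base, in capitals at position 11 counted from the left. The token gives the B base, its position and the D base as the files list it.
Rnf144a, 5′ UTR, C11G, 62.7% D, chr12:27074319-27074339: tgtgcttaggCgtattcagct
Usp38, synonymous, A11G, 61.7% D, chr8:83509485-83509505: aggtactcccAcagtttaggc
Otub1, 3′ UTR, G11A, 60.3% D, chr19:7273499-7273519: ggaggcaggcGgggcacaaca
Fbxo44, synonymous, C11T, 14.9% D, chr4:147530284-147530304: gaatcatcacCgggtccggct
Usp35, synonymous, G11A, 9.09% D, chr7:104468512-104468532: ggaagcccggGaaccgaaaca

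Otub1 encodes a deubiquitinase that also blocks some loaded E2 enzymes directly. Its single counted SNP had 47 B and 93 D reads in the BxD female pool, 52 and 64 in the pool labelled DxB female, 66 and 100 in the pool labelled BxD male and 44 and 60 in the DxB male pool. D was higher in all of them, with a log2 ratio of 0.70 ± 0.20 (adjusted p = 0.0285, edgeR). The call was lost without the BxD female pool (adjusted p = 0.125) and without the DxB male pool (adjusted p = 0.0896), and 1 SNP marked as intronic gave 40.8% D from 49 reads, with a 95% Wilson interval of 28.2% to 54.8%.

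The other D-higher genes encode F-box proteins. Fbxo34 had 20 B and 38 D reads in the BxD female pool, 21 and 36 in the pool labelled DxB female, 15 and 33 in the pool labelled BxD male and 11 and 41 in the DxB male pool, with a log2 ratio of 1.28 ± 0.25 (adjusted p = 0.00275, edgeR). Its D share was highest in the DxB male pool (78.8%), and the other pools lay between 63.2% and 68.8%. Of its 12 SNPs only 2 had at least 20 reads, and these differed, at 60.7% and 94.3% D. Fbxo4, which is known to bind cyclin D1, had 483 B and 718 D reads (59.8% D, adjusted p = 0.0122), and Fbxo28 had 169 and 254 (adjusted p = 0.0347). The 3 SNPs of Fbxo4 were at 63.3%, 60.8% and 32.1% D, so its share rested on the first 2 of these. Fbxw4 had 420 B and 550 D reads at 2 SNPs (56.7% D, adjusted p = 0.0173) and 59.4% D over 192 intronic reads. Fbxl14, which targets the transcription factor Snail1 for degradation, had 358 B and 485 D reads (57.5% D, adjusted p = 0.00713), but all 4 of its SNPs also lie in an exon row of Wnt5b, and without strand the reads of these genes cannot be told apart.

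These smaller D excesses depended on single pools. Without the BxD female pool, Fbxo28 (adjusted p = 0.0855), Fbxl14 (0.0518) and Fbxw4 (0.061) were no longer called. Without the pool labelled BxD male, Fbxo4 (0.0725) and Fbxw4 (0.1) were lost, without the pool labelled DxB female Fbxo28 (0.216), and without the DxB male pool Fbxo28 (0.0595) and Fbxw4 (0.0566). Rnf144a, Usp38 and Fbxo34 stayed under 0.05 without any single pool.

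**Figure D2:**
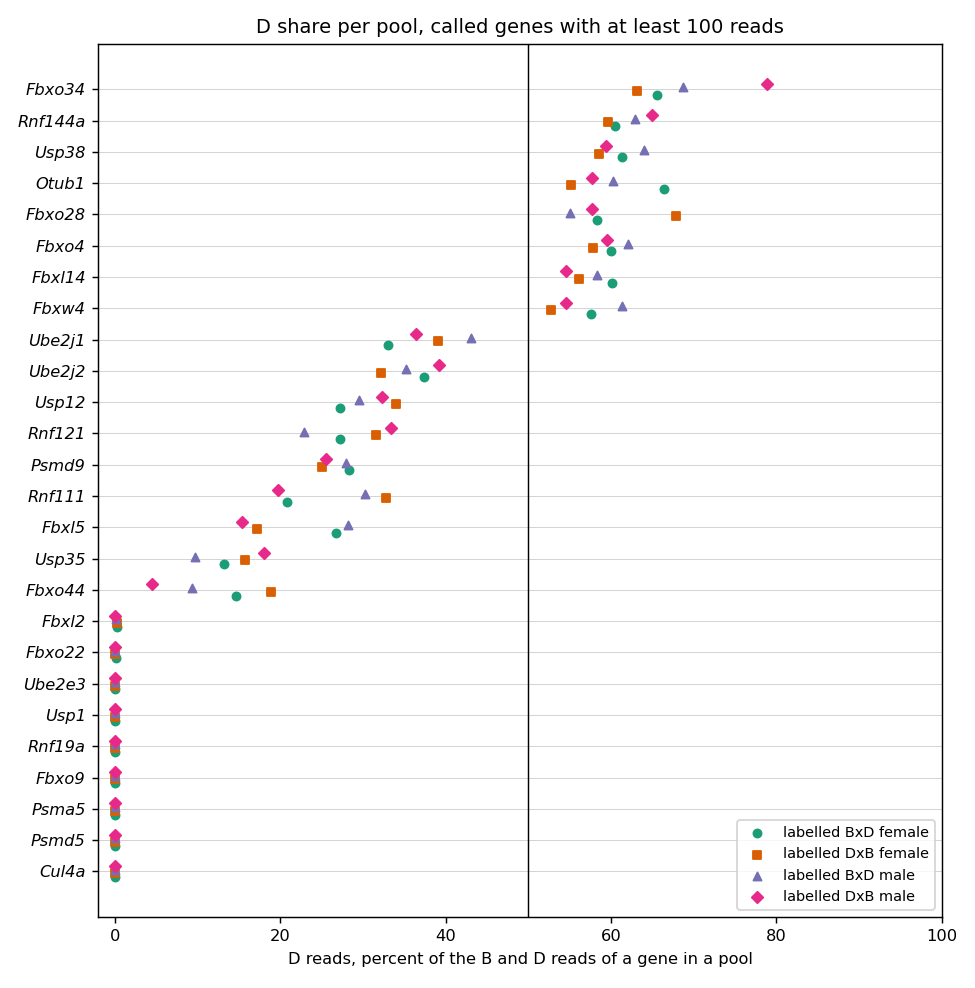
D share in each of the 4 pools (x axis, percent of B and D reads, 1 point per pool, pools named as labelled) for the 26 called genes with at least 100 reads. The upper 8 genes lie above 50% and the other 18 below it in all pools, and the points of 9 genes at the bottom lie at or near 0%.

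On the B side, Fbxo44 and Usp35 had a graded excess with both alleles read at all of their SNPs. Fbxo44 belongs to the F-box proteins related to those that bind sugar chains on glycoproteins. It had 93 B and 16 D reads in the BxD female pool, 82 and 19 in the pool labelled DxB female, 87 and 9 in the pool labelled BxD male and 43 and 2 in the DxB male pool. The share was low in all pools but spread from 4.44% to 18.8% D, and the log2 ratio was -2.62 ± 0.38 (adjusted p = 0.00027, edgeR). Its 7 SNPs in 4 exons ranged from 7.5% to 24.0% D, none of them at 0, and the 26 intronic reads gave 15.4% D.

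Fbxo44 lies between Fbxo6 and Fbxo2, which encode related sugar-binding F-box proteins, on chromosome 4 (147519825 to 147540533 for the 3 genes). These neighbours were named after their values were seen. Fbxo6 had 858 B and 669 D reads (43.8% D), with a log2 ratio of -0.26 ± 0.14 and an adjusted p of 0.259 (0.0261 with the block). Its 10 SNPs of at least 20 reads ranged from 12.5% to 53.6% D, with 9 below and 1 above 50%. Fbxo2 had only 14 B and 35 D reads over 4 SNPs (71.4% D, log2 ratio 1.38 ± 0.42, adjusted p = 0.0377), a call that was lost when any 1 pool was left out (adjusted p from 0.0653 to 0.217). The 3 neighbouring genes thus had shares on different sides of 50%, with none of their SNPs in common.

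Usp35, a deubiquitinase, had 46 B and 7 D reads in the BxD female pool, 43 and 8 in the pool labelled DxB female, 56 and 6 in the pool labelled BxD male and 41 and 9 in the DxB male pool. The D share was low in all pools, at 14.1% ± 3.56 (SD, n = 4), and the log2 ratio was -2.50 ± 0.27 (adjusted p = 2.58e-05, edgeR). Its 3 SNPs were at 9.09%, 17.8% and 18.1% D, and 45 SNPs marked as intronic gave 9.44% D from 784 reads. Usp12, a deubiquitinase that works with a WD repeat cofactor, had 908 B and 399 D reads and a log2 ratio of -1.06 ± 0.16 (adjusted p = 0.000361, edgeR). Of its 4 SNPs, 3 were at 24.8% to 28.6% D and 1 was at 49.7%, and its intronic reads were 35.3% D. Ube2j1, a membrane-bound conjugating enzyme of endoplasmic reticulum protein degradation, had 457 B and 272 D reads, with SNPs at 42.0% and 31.1% D and an adjusted p of 0.0218. It lost its call without the BxD female pool (adjusted p = 0.107), the pool labelled DxB female (0.086) or the DxB male pool (0.123), and its intronic reads were 47.1% D.

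A second kind of B excess came from SNPs at which almost no D read was counted. At 41 of the 592 SNPs with at least 20 reads in these genes (6.93%), under 1% of the reads were D, and 1379 of 30627 such SNPs in all genes did so (4.50%). No SNP of these genes had under 1% B reads, and 71 in all genes (0.232%) did. The 41 SNPs lay in 22 genes. In 13 of these genes every SNP of that depth was of this kind, and in the other 9 it stood beside SNPs read from both alleles. Among the 32 called genes, 18 held at least 1 such SNP.

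Psmd9, an assembly chaperone of the proteasome cap, shows both kinds side by side. It had 213 B and 84 D reads in the BxD female pool, 213 and 71 in the pool labelled DxB female, 191 and 74 in the pool labelled BxD male and 166 and 57 in the DxB male pool. The pools hardly differed, at 26.7% ± 1.65 D (SD, n = 4), and the log2 ratio was -1.35 ± 0.11 (adjusted p = 2.36e-06, edgeR). The 4 SNPs behind this mean did not share it. They are printed in order of position to show that SNPs without any D read lie between SNPs read alike from both alleles.
Psmd9 SNP 1, coding, T11C, 224 B and 212 D reads, chr5:123689688-123689708: aacagccccgTcctgccccag
Psmd9 SNP 2, 3′ UTR, G11A, 222 B and 0 D reads, chr5:123698439-123698459: aatggtcgaaGcctgggcatc
Psmd9 SNP 3, 3′ UTR, G11A, 262 B and 0 D reads, chr5:123698470-123698490: agacgctttgGctgcctgatg
Psmd9 SNP 4, 3′ UTR, G11A, 75 B and 74 D reads, chr5:123698592-123698612: gccagtgagtGgggatgactc

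SNPs 2 and 3 had no D read in any pool, which allows a share of up to 1.35% and 1.15%, respectively, by counting error alone. Over SNPs 1 and 4 Psmd9 had 299 B and 286 D reads, a log2 ratio of 0.03 ± 0.13 (adjusted p = 0.946, edgeR), and its 41 intronic reads were 56.1% D. The call of Psmd9 thus rests on SNPs 2 and 3.

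The same held for Rnf121, Rnf111 and Ube2j2. Rnf121, a membrane RING finger protein, had 494 B and 0 D reads at 1 SNP and 25.9% to 55.6% D at the other 5, and its 1441 intronic reads were 49.8% D. Rnf111 (Arkadia), a ligase known to strengthen TGF-beta signalling, had SNPs at 83.8%, 28.2% and 0% D. Ube2j2, the close relative of Ube2j1, had 153 B and 0 D reads at 1 SNP and 43.8% and 48.7% D at the others of at least 20 reads. Without such SNPs, the log2 ratios of Rnf121 (0.10 ± 0.16), Rnf111 (0.40 ± 0.30) and Ube2j2 (0.18 ± 0.21) were above 0, with adjusted p-values from 0.493 to 0.776.

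Fbxl5, the iron-sensing F-box protein that controls iron regulatory protein 2, changed direction with the choice of SNPs. It had 244 B and 89 D reads in the BxD female pool, 188 and 39 in the pool labelled DxB female, 212 and 83 in the pool labelled BxD male and 231 and 42 in the DxB male pool. B was higher in all pools, with a log2 ratio of -1.71 ± 0.23 (adjusted p = 0.000159, edgeR). Of its SNPs, 2 had 506 B and 1 D and 246 B and 0 D reads, and the other 2, which also lie in an exon row of Bst1, had 68.0% and 66.5% D. With the first pair removed the ratio was 1.09 ± 0.27 (adjusted p = 0.0276), and the 116 intronic reads of Fbxl5 were 95.7% D.

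**Figure D3:**
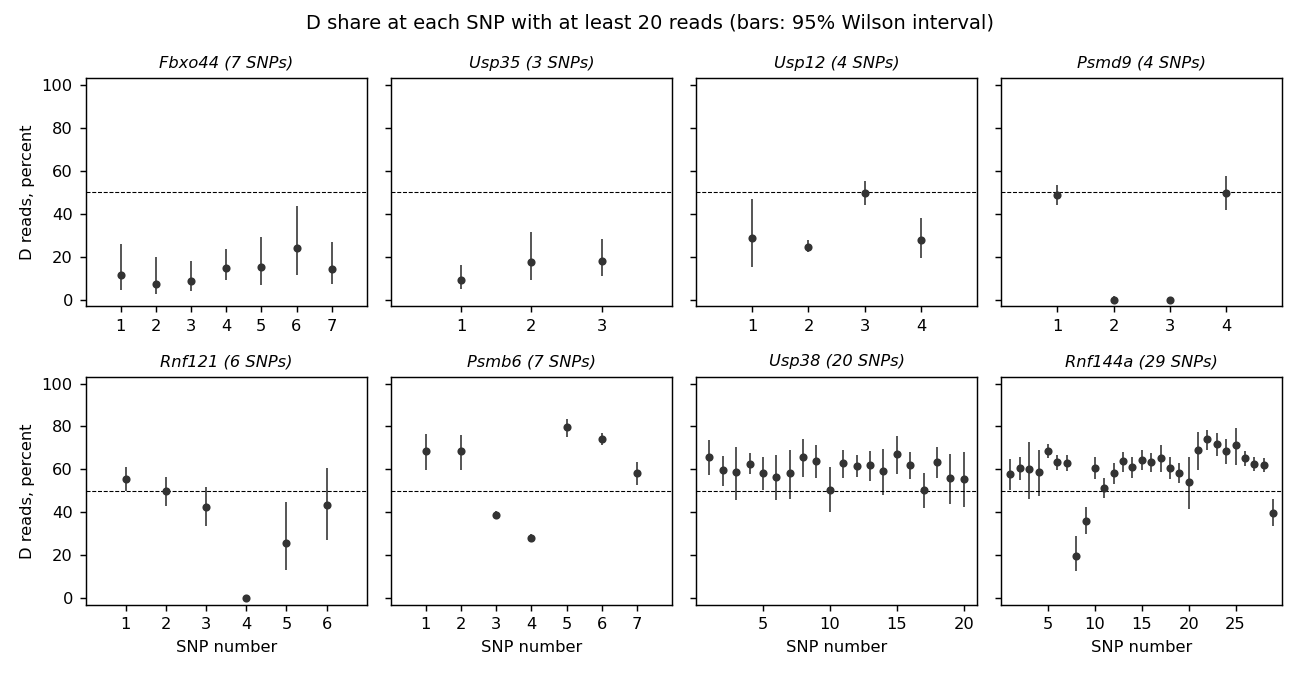
D share (y axis, percent) at each SNP with at least 20 reads over the 4 pools, numbered by position along the chromosome (x axis), with 95% Wilson intervals, for 8 genes. The points of Fbxo44 and Usp35 stay below 50% and those of Usp38 above it, Psmd9 and Rnf121 have points at 0% beside points near 50%, and Psmb6 has points from 28.2% to 79.5%.

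Where every SNP was of this kind, the gene had next to no D reads at all. These counts do not show that D mice carry the listed D base, and at the SNP of Psmd5 the DNA sequencing that the study made of D mice found the B base instead, as it did at the SNPs of this kind it tested in other genes. The counts that follow may therefore compare no alleles, and no fold is given. Fbxo22, an F-box protein known to act on methylated p53, had 1279 B and 1 D read in the BxD female pool and 1128, 1349 and 1153 B reads with 0 D reads in the pools labelled DxB female, BxD male and DxB male. All 11 of its SNPs also lie in exon rows of Nrg4, and its 274 intronic reads were 4.74% D. Fbxl2, a membrane-anchored F-box protein, had 2298 B and 4 D reads, but each of its 4 SNPs also belongs to exon rows of Ubp1 and is annotated as intronic.

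The remaining genes of this kind had no SNP in common with another gene. Ube2e3, a conjugating enzyme, had 133, 145, 108 and 83 B reads and 0 D reads in the order of the pools. Cul4a, the scaffold of a DNA damage-related ligase, had 97, 141, 94 and 70 B reads and 0 D reads in the same order. Psmd5, an assembly chaperone of the cap, had 56, 59, 64 and 63 B reads and 0 D reads. Psma5, a structural subunit of the core, had 41, 47, 36 and 38 B reads and 0 D reads. Fbxo9 had 168 B reads in all, Usp1, which removes ubiquitin from PCNA and FANCD2, 112, and Rnf19a (dorfin) 110, each without a D read. Fbxo9, Psmd5, Psma5, Usp1 and Rnf19a rest on 1 SNP each. Psmb5, which carries the chymotrypsin-like site of the core, had 77 B and 1 D read, while its 154 intronic reads were 29.2% D. Below 100 reads, Rnf166 (56 B reads), Ube2c (27) and Otub2 (25) had no D read. Psmb5, Rnf166, Ube2c, Otub2 and Fbxo39 fall outside the rule for named genes and are given so that each called gene is accounted for, as are Fbxo2 and the 8 called genes with a graded or mixed B excess other than Fbxo44.

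SNPs of 4 of these genes are shown with the D base as listed, since the calls rest on these bases alone.
Fbxo22, synonymous, T11C, 1071 B and 0 D reads, chr9:55071133-55071153: aggatgtaaaTgatgccaaga
Ube2e3, nonsynonymous, G11A, 216 B and 0 D reads, chr2:78760123-78760143: ctggtcggaaGcatagccact
Ube2e3, nonsynonymous, G11A, 253 B and 0 D reads, chr2:78760152-78760172: gaccaacagaGcagaacatga
Cul4a, 3′ UTR, G11A, 297 B and 0 D reads, chr8:13146997-13147017: gaaagagagaGccctgggctg
Psma5, 5′ UTR, T11G, 162 B and 0 D reads, chr3:108060109-108060129: gcggtgtggtTgattagggtg

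Of the 41 SNPs, 9 were annotated as intronic, 10 as nonsynonymous, 6 as 5′ UTR and 11 as 3′ UTR, where of the other 551 SNPs of at least 20 reads 29, 52, 25 and 263 were. In 36.6% of the 41, all in Fbxo22 and Fbxl2, the SNP also lay in an exon of another gene, against 5.26% of the others. The median GC content of the 21-base windows was 61.9%, against 52.4%, and the mean number of other listed SNPs within 49 bp was 0.439, against 0.514. These are descriptions over SNPs of which several share a gene, and their part in the missing D reads was not tested. When all SNPs of this depth with under 1% of the reads from either allele were removed from the whole table, 11 of 126 of the genes were called, 7 with D and 4 with B higher, where 9.73% of all 7552 genes were called, 3.55% with D and 6.18% with B higher. All 11 were among the 32, and 10 of them kept their direction, the exception being Fbxl5.

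The proteasome core gene with the most reads, Psmb6, which carries the caspase-like site, had 1496 B and 1047 D reads in the BxD female pool, 1317 and 1053 in the pool labelled DxB female, 1437 and 1031 in the pool labelled BxD male and 974 and 754 in the DxB male pool. B was higher in every pool, at 42.8% ± 1.53 D (SD, n = 4), with a log2 ratio of -0.31 ± 0.10 (adjusted p = 0.0621 without and 0.000181 with the block, edgeR). Its 7 SNPs again disagreed beyond their counting error. Neighbouring synonymous SNPs lay on opposite sides of 50%, as these 3 show.
Psmb6, G11C, 39.0% D (37.6% to 40.4%), chr11:70340739-70340759: ccgggagctcGtacatctatg
Psmb6, G11C, 28.2% D (26.5% to 29.9%), chr11:70340766-70340786: ttgatgctacGtatcgggaag
Psmb6, T11C, 79.5% D (75.2% to 83.3%), chr11:70341021-70341041: gcaggtgcttTtgggagacca

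The first 2 of these SNPs had 4397 and 2791 of the 9109 reads of Psmb6, and the other 5 were at 58.2% to 79.5% D. The sign of the gene-level ratio therefore followed the most deeply read SNPs.

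Cul4a and Rnf144a, the most deeply read cullin and RING finger genes, are described above, and the most deeply read genes of the other roles were not called without the block. Psmc3, an ATPase subunit of the cap, had 45.3% ± 1.49 D (SD, n = 4) with a log2 ratio of -0.15 ± 0.14 (adjusted p = 0.53). Ube2o, a large enzyme with both E2 and E3 activity, had 49.3% ± 0.932 D and a ratio of 0.07 ± 0.12 (adjusted p = 0.775), and Fbxl20 had 48.2% ± 0.957 D and a ratio of 0.01 ± 0.10 (adjusted p = 0.981). Psme4, the nuclear proteasome activator PA200, had 42.8% ± 1.37 D (adjusted p = 0.0624 without and 0.00328 with the block), and 2 of its 12 SNPs of at least 20 reads lacked D reads. Without these SNPs it had 45.2% D and a log2 ratio of -0.19 ± 0.10 (adjusted p = 0.328). Usp48 had 43.6% ± 1.77 D (0.159 and 0.00124), and Uba2 had 51.9% ± 0.959 D (0.16 and 0.0176). The shares of these genes varied by less than 2 percentage points (SD) between pools. Each p of this paragraph is adjusted and from edgeR's quasi-likelihood test.

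Over all of these genes, the median range of the D share between the SNPs of a gene was 15.4 percentage points (78 genes with at least 2 SNPs of at least 20 reads), and 14.7 in the 64 without a SNP lacking D reads. The SEs above come from the pools and do not include this spread between SNPs.

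Reads at SNPs marked as intronic were counted apart from the exonic reads. Whether they come from transcripts of the same gene was not tested. Among the genes that were not called, Otud7a had 6 exonic but 6658 intronic reads (5.51% D). Fbxl13, also not called, had 49.2% D over 128 exonic and 98.1% D over 590 intronic reads. Of the 32 called genes, 18 had at least 20 intronic reads, and in 13 of them the intronic share lay on the same side of 50% as the exonic share, 8 of 11 with B higher and 5 of 7 with D higher. The median intronic share of the 93 genes with at least 20 intronic reads was 48.8% D, so a share just under 50% is usual. In 7 of the 18 the 95% interval of the intronic share included 50%, among them Rnf121 (47.2% to 52.3%) and Ube2j1 (43.6% to 50.6%). Over the 89 genes with at least 20 reads in both, Pearson's r between the shares was 0.318, given as a description since the genes share the same 4 pools.

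**Figure D4:**
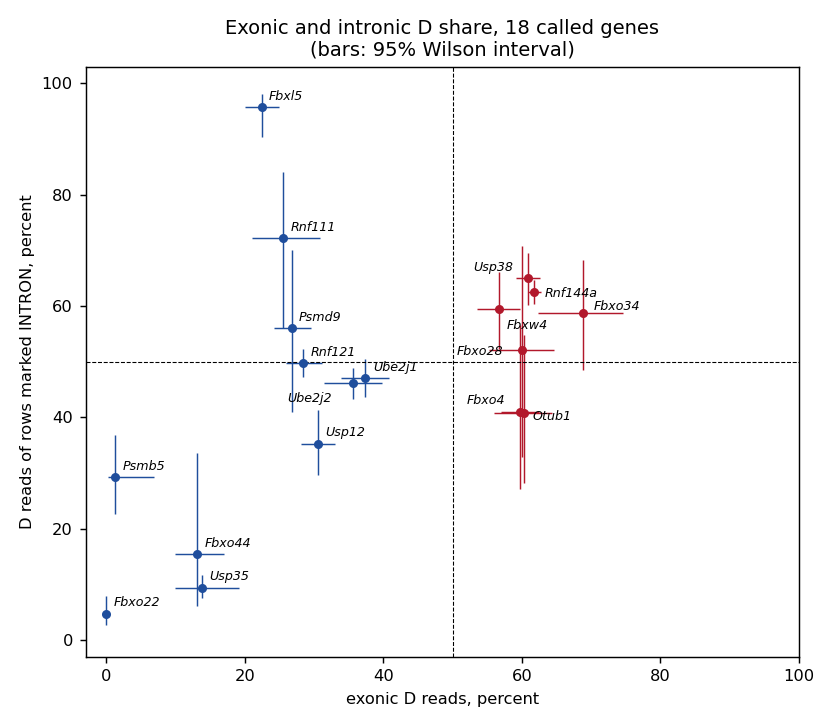
Intronic D share (y axis, percent) against exonic D share (x axis, percent) over the 4 pools, with 95% Wilson intervals, for the 18 called genes with at least 20 intronic reads, blue for B higher and red for D higher in exons. Fbxo22, Fbxo44, Usp35 and Usp12 are low and Usp38 and Rnf144a high in both, whereas Fbxl5 (22.4% in exons, 95.7% in introns) and Rnf111 (25.6% and 72.2%) are on opposite sides.

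Ubiquitin pathway genes outside the symbol rule were taken from a list of 87, of which 40 had counted reads. Of the 40, 9 (22.5%) were called, all with B higher, where 18.3% of all genes were called, 13.5% with B higher. With the block 15 were called, 11 with B and 4 with D higher, where 32.6% of all genes were, 20% with B and 12.6% with D higher. March5, a mitochondrial ligase (824 B and 2 D reads), Cbl, a ligase of receptor tyrosine kinases (408 and 1), Ube3c (241 and 1), Vcp, the segregase that extracts ubiquitinated proteins (99 and 1), and the conjugating enzyme Cdc34 (139 and 0) were read almost only from B, with the same limit as above on the listed D bases. Herc1 (16.8% D), Rbx1, the RING subunit of cullin ligases (16.3%), and Uchl1 (27.7%) had a graded excess. The deubiquitinase Cyld had 37.2% D (2018 B and 1196 D reads, log2 ratio -0.65 ± 0.15, adjusted p = 0.00696, edgeR). Without its SNPs with under 1% of the reads from either allele, the log2 ratio of Cyld was 0.06 ± 0.16 (adjusted p = 0.879, edgeR). The call of Cyld thus rests on such SNPs. After removal of the SNPs with under 1% of the reads from either allele, 3 of 37 were called (Herc1, Rbx1 and Vcp), against the 9.73% of all genes given above. The removal hardly changed the log2 ratio of Vcp (-5.96 and then -5.98), so the limit on its listed D bases remains.

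Differences by sex, by parent of origin and by cross asked whether allele use or total level depends on the pool. No gene of the 136 had a B to D ratio that differed by sex, where 8 of all genes (0.101%) did under the labels and 0 under the file names. At an unadjusted p under 0.05 there were 0 of the 136 under the labels and 1, Fbxl5, under the file names (adjusted p = 1.0). DESeq2 also called 0. No parent of origin difference was called under either identity (0 of all genes under the labels, and 4, 0.0505%, under the file names), with 1 gene, Fbxo8, at an unadjusted p under 0.05 under the labels and 0 under the file names, and DESeq2 called 0.

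Of the totals of B and D reads, 1 of 136 differed. Fbxo21, an F-box protein, had 571 reads in the BxD female pool, 1091 in the pool labelled DxB female, 655 in the pool labelled BxD male and 957 in the DxB male pool, or 136, 266, 161 and 289 of each 1000000 reads used. The pools labelled DxB did not overlap with those labelled BxD, and the log2 difference was 0.98 ± 0.19 (adjusted p = 0.0142, edgeR, where 2.52% of all genes were called). Under the file names the same contrast is male against female, so whether it is a difference by cross or by sex depends on the identity of the 2 pools in question. The X chromosome reads of those 2 pools, given above, go with the file names. Both alleles were higher in the pools labelled DxB, with 298, 578, 350 and 476 B and 273, 513, 305 and 481 D reads in the same order. The call was lost without the pool labelled DxB female (adjusted p = 0.116), without the DxB male pool (0.154) and with genes of at least 10 reads only (0.0755). By sex as labelled, no total differed, with 1 gene (Fbxo9) at an unadjusted p under 0.05 and 0 calls by DESeq2. In such pools of tissue, fewer cells of a type and less RNA per cell cannot be told apart. Of 3 skeletal muscle markers only Myh4 had counted reads, with 75, 3, 29 and 0 in the order of the pools, higher where Fbxo21 was lower, and its part in the difference was not tested.

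**Figure D5:**
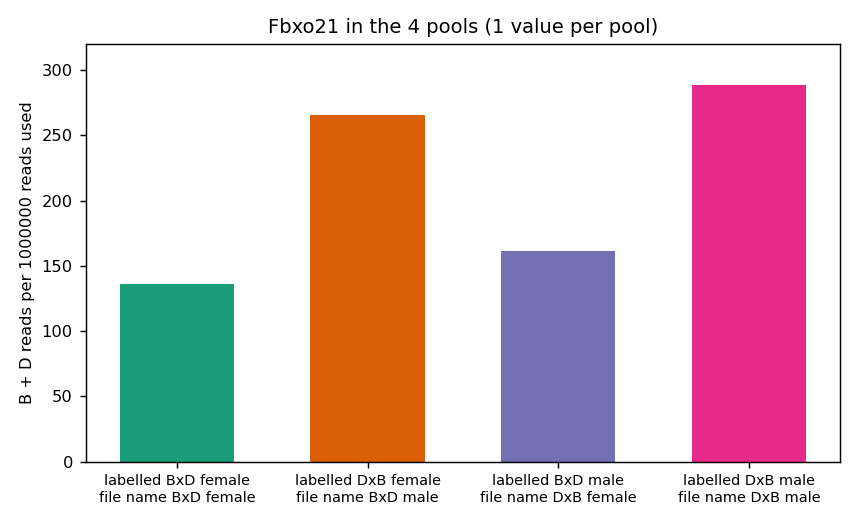
Reads of Fbxo21 from both alleles per 1000000 exonic autosomal reads used (y axis) in each of the 4 pools, 1 bar per pool, with the identity given by the label and by the file name. The bars at 266 and 289 belong to the pools labelled DxB, which are the male pools by file name, and those at 136 and 161 to the others.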

How the data were processed

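RNA of 4 pools was sequenced as 50 bp pairs, and the authors deposited, per SNP and pool, raw counts of reads with the B and with the D base, without normalization. Per the paper's methods, mates were mapped singly to mm9 with up to 3 mismatches by mrsFAST, then TopHat, keeping unique hits. The methods describe masking of D variants, which the supplement leaves uncertain. The submitters' notes name CASAVA and TopHat 1.

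Exonic rows of chromosomes 1 to 19 were used. SNPs listing 1 base for both strains were dropped, the first of SNPs within 18 bp was kept per gene and exon, and counts were summed per gene. The sums have 3312507 to 4203116 reads per pool. The 8 allele libraries were compared in edgeR 4.0.16 (R 4.3.3, TMM, quasi-likelihood test, Benjamini-Hochberg, 0.05) with strain as factor and no block, and SEs are the log2 ratio over the root of F. Treating the 8 libraries as independent follows the study. B and D libraries of a pool come from the same animals, and their deviations from the allele means correlated at 0.506 to 0.627 over 5122 genes. Sex, parent and cross were tested likewise. With 1 pool per cross and sex, p-values measure the spread between pools only. The fits were also run on simulated counts. These were drawn independently for each library with large planted differences, so they do not test the pairing of B and D libraries or smaller ratios. Alternatives were DESeq2 1.42.0, other scalings, filters and SNP sets, the block, file-name identity and each pool left out. Intervals are 95% Wilson intervals, and floors are 3 reads. Both cover the counting error of independent reads only. Mates were counted singly, and those of a pair are not independent, so the intervals and floors can be too narrow.

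Named genes were, among called genes with at least 100 reads and 1 direction in all pools, the 10 highest and 10 lowest log2 ratios, plus the most-read gene of each role. Of the former, 8 with D higher existed. Members, lists and this rule were chosen with earlier results of these data known. Gene positions are from GENCODE M1 (136 of 137 matched) and sequences from NCBIM37 (mm9), by Python 3.11.15, pandas 2.3.3 and pysam 0.24.0. What the last column of the files (OKAY or NOOKAY) means was not given in the sources used here, and it was not used as a filter.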

Additional observations from a re-analysis of the deposited data

Results flagged for a closer look

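The D share of Fbxo22 in the BxD female pool was 0.0781% (1 D of 1280 reads), apart from the other 3 pools, which had none. A single read sets this gap, and any gene with D reads in only 1 pool is set apart by this rule. The rule was run on 18 genes. About 1 in 20 groups of 4 is set apart in this way by chance, a rate that does not hold for pools tied at 0.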

How the results depend on the processing

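The count of 32 called genes stayed within 1.5 times of itself under DESeq2 (33), other scalings and filters (31 to 34), removal of SNPs shared with another gene (29, chosen after seeing the data) and each pool left out (24 to 28, of them 4 to 7 with D higher, against 9). It was 11 without SNPs of at least 20 reads and under 1% from either allele and 50 with the replicate block (pool). With 1 library size per pool, which moved the median log2 ratio of all genes by -0.11, 33 were called, 28 with B and 5 with D higher, and Psmb6 (adjusted p = 0.0163, edgeR) and Psme4 (0.0189) were among them while Otub1 (0.0587), Fbxo28 (0.0797), Fbxw4 (0.073) and Fbxo2 (0.0632) were not. For the other pathway genes the count of 9 became 3 and 15 under the same SNP removal and replicate block and 8 with any pool left out. Ratios of uncalled genes near 0 changed sign: Ube2o to -0.045 and Fbxl20 to -0.10 with 1 library size per pool, and Fbxl20 to -0.011 with SNPs at least 50 bp apart and to -0.00061 with the SNP removal. Among called genes the SNP removal turned Fbxl5 (1.09), Psmd9 (0.027), Rnf111 (0.40), Rnf121 (0.10) and Ube2j2 (0.18), since it takes out the SNPs without D reads, and left no value for Fbxo22, Fbxl2, Ube2e3, Psmd5, Fbxo9, Psma5, Usp1, Rnf19a, Rnf166 and Otub2. There Otub1 (log2 0.70 and then 0.67, adjusted p = 0.0555, edgeR), Fbxo28 (0.69 and then 0.67, 0.0682), Fbxo2 (1.38 and then 1.36, 0.065) and Fbxo39 (0.0622) lost their call, and the cause was not tested, as did Cul4a, Psmb5 and Ube2c, which had few reads left (3 B, 15 B and 1 D, and 2 B). Ube2j2 also lost it without the BxD female pool (adjusted p = 0.0686), the pool labelled DxB female (0.139) or the pool labelled BxD male (0.0777). Members whose total differed by cross numbered 1, and 0 with the file-name identity or at least 10 reads per gene, and 0 to 3 with a pool left out. By sex they numbered 0, and 1 with the file-name identity. The calls of 0 for the ratio by sex and for parent of origin were 0 under each alternative run. With a pool left out, the lone pool of a group is assumed to vary like the others. Depth limits the 36 genes with under 100 reads.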
